A study of Homo sapiens with 44 samples.

Results

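FKBP5, ZBTB16, BCL6, TFCP2L1, RASD1, CDKN1C, PDK4, ANGPTL4 and CRISPLD2 are 9 genes that are widely used as reporters of glucocorticoid action. They were taken by symbol from both RNA-seq tables of the series, which hold 25690 genes for HEK293-GR cells and 25689 genes (48118 transcripts) for A549 cells, and in A549 each gene was read from the transcript with the most reads. All 9 were listed in both tables. Their levels were compared gene by gene over cell line, siRNA and treatment.

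HEK293-GR is an isogenic Flp-In derivative of the embryonic kidney line HEK293 in which the glucocorticoid receptor is expressed constitutively from a transgene, and A549 is a lung adenocarcinoma line that expresses the receptor by itself. Cells of both lines were transfected with 20 nM of an siRNA pool against IRF2BP2 (siIRF2BP2), a nuclear cofactor, or with a non-targeting pool (siNON), and every RNA group was kept in medium stripped of steroids for 72 h. The treatments lasted 6 h and were vehicle (ethanol), 100 nM of the synthetic glucocorticoid dexamethasone (dex) and, in A549 only, 10 ng/ml of the inflammatory cytokine TNF or dex and TNF together. IRF2BP2 chromatin immunoprecipitation (ChIP) peak lists came from HEK293-GR cells after 1 h of vehicle or dex, with 48 h in steroid-depleted medium. The HEK293-GR table had 1 column for each of 12 libraries, 3 in each of the 4 groups (replicates 1 to 3 of the 4 that the labels number), at 18.2 to 28.5 M tags. In the A549 table the 3 replicates of each of the 8 groups were pooled into 1 column of 35.8 to 56.9 M tags, so there is no spread between A549 replicates here. The labels do not say that the replicates came from separate cultures, so the p-values measure only the spread between these libraries, which may be technical in part.

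Levels in HEK293-GR are FPKM over the exon length. A549 levels are counts per M tags (CPM), recovered from the deposited FPKM and its length column. That length was the genomic span in 98.6% of A549 transcripts, so FPKM of that table cannot be compared between genes, and whether intron reads entered it was not tested. In HEK293-GR, limma on log2(FPKM + 0.1) was run on the 15594 genes that had 10 or more reads in 3 or more libraries. This scale understates the change of low genes. A gene was called at a Benjamini-Hochberg adjusted p under 0.05 over all tested genes. In A549 the log2 fold changes and false discovery rates (FDR) are those of the authors' deposited table, called at an FDR under 0.05 among the 14112 genes with a mean of at least 30 reads per column. FKBP5, ZBTB16, BCL6, TFCP2L1, RASD1, CDKN1C, PDK4 and CRISPLD2 passed the HEK293-GR filter and ANGPTL4 did not, while in A549 ZBTB16 was the member that failed.

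The glucocorticoid receptor is a nuclear receptor that is held in the cytoplasm by heat shock protein chaperones until a hormone binds. It then enters the nucleus and binds DNA, typically at palindromic response elements, many of them far from promoters. The genes it switches on include its own brake FKBP5, transcription factors, cell cycle inhibitors and enzymes that move cells from glucose to fat as fuel. Pro-inflammatory signals through NF-kB and the receptor are known to oppose each other at many genes.

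The siRNA target IRF2BP2 was reduced in HEK293-GR, with no overlap between siIRF2BP2 and siNON libraries. Its mean was 22.9 ± 2.41 FPKM (SD, n = 3) with siNON and 12.7 ± 0.960 FPKM (n = 3) with siIRF2BP2 under vehicle, and 20.0 ± 0.605 and 10.4 ± 0.752 FPKM under dex (n = 3 each). In A549 the authors' deposited table gave IRF2BP2 a knockdown log2 fold change of -0.31 under vehicle (FDR 0.0130), -0.66 under dex (FDR 2.48e-07), -0.40 under TNF (FDR 2.93e-04) and -0.62 under both agents (FDR 9.94e-08). The log2 ratios of the pooled columns were smaller for IRF2BP2, at -0.18 for vehicle (156 against 138 CPM), -0.45 for dex, -0.30 for TNF and -0.50 for the combination. The receptor gene NR3C1 averaged between 32.7 and 37.1 FPKM in the 4 HEK293-GR groups, and no contrast of it passed the limma threshold (adjusted p = 0.171 to 0.954). In A549 NR3C1 was lower with dex under siIRF2BP2 (-0.61, FDR 5.22e-27, from 187 to 118 CPM in the authors' deposited table), while with siNON its dex value of -0.19 did not pass (FDR 0.553). TNF raised NR3C1 with siIRF2BP2 (0.28, FDR 9.33e-04), and the knockdown value was -0.26 under dex (FDR 0.0284) and 0.33 under TNF (FDR 8.51e-04), again in the authors' deposited table. The part of these receptor levels in the members' A549 values was not tested. All levels are averages over whole cultures, in which fewer responding cells and less RNA per cell cannot be told apart. All 11 A549 markers reached a level of 1 per kb of exon in A549 and 8 of 9 HEK293 markers did so in HEK293-GR (SALL4 was at most 0.126 FPKM), but 7 of the 11 also did in HEK293-GR and 6 of the 9 in A549, so this level alone does not separate the lines. The summed level of the A549 markers was 161 to 283 FPKM in HEK293-GR and at least 10930 CPM per kb of exon in A549, and that of the HEK293 markers 85.8 to 121 and 17.4 to 23.4. Of 11 markers of blood, endothelial and fibroblast cells, COL1A1 (4.56 to 7.42 FPKM) and HBA1 (1.38 to 5.05 FPKM) reached 1 in HEK293-GR, and COL1A1 (4.44 to 15.6), CD14 and LUM in A549, with PTPRC and COL1A2 at or near 0 in both.

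Promoters of FKBP5, RASD1, TFCP2L1, CRISPLD2, PDK4, ANGPTL4 and BCL6 were matched by symbol in RefSeq (build GRCh38.p14), 9 promoters of 7 genes. The 4 below are shown because an IRF2BP2 peak lay within 10 kb of a start of that gene. Each is the 250 bases before a start, read 5′ to 3′ on the gene's own strand. For BCL6 the more upstream of the 2 listed starts is given. By the starts on build hg19, the peaks of PDK4 (centre 0.637 kb upstream), TFCP2L1 (2.35 kb downstream) and ANGPTL4 (3.32 kb downstream) lay outside such a stretch. The bases under those 3 peaks are therefore not printed. Capitals mark the motifs AGAACA on either strand (printed as TGTTCT where it lies on the opposite strand), a single arm of the receptor's response element, and TATAAA on the gene's strand, the core of a TATA box.
PDK4 (chr7:95596517-95596766, minus strand): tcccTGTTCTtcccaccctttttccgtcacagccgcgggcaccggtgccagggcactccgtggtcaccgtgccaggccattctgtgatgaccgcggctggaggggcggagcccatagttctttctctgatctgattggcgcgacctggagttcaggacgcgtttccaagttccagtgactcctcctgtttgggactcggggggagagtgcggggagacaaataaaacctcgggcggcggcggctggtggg
ANGPTL4 (chr19:8363905-8364154, plus strand): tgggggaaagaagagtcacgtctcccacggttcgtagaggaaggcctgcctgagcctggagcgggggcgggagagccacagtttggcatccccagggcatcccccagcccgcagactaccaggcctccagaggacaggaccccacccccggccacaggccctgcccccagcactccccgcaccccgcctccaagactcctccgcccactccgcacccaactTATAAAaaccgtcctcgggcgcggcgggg
TFCP2L1 (chr2:121285203-121285452, minus strand): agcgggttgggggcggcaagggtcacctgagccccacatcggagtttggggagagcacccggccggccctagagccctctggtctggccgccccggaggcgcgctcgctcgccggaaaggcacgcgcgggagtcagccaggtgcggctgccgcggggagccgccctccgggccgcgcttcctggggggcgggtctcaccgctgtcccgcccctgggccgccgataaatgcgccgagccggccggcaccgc
BCL6 (chr3:187745469-187745718, minus strand): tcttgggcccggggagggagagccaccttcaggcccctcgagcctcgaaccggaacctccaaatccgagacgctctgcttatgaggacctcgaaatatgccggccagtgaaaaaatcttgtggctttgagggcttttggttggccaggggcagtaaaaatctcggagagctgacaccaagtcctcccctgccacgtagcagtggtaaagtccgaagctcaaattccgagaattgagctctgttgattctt
PDK4 was the 1 member with AGAACA in any of its promoters, a motif found in 12.4% of all 35116 promoters of that length, and ANGPTL4 the 1 member with TATAAA, found in 6.80%. The looser palindrome, GNACA and TGTNC with 3 bases of any kind between, was in 0 of the 9 promoters and in 0.328% of all promoters. The full element, AGAACA and TGTTCT with the same gap, which contains the looser form and AGAACA, was in 0 of the 9 and 0.00285% of all. Both palindromes were searched on both strands, and these counts speak only of the letters in these 250 bases. GC content ranged from 54.4% in the printed promoter of BCL6 over 62.8% in PDK4 and 68.8% in ANGPTL4 to 76.8% in TFCP2L1.

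Dex raised all 8 tested members in HEK293-GR with siNON, where 10.9% of the tested genes rose. With siIRF2BP2 it again raised 8 of 8, against 5.86% of the tested genes. The 3 members with the largest response were RASD1, CDKN1C and PDK4, which ranked 5th, 9th and 11th of the 15594 genes by log2 fold change with siNON, and the smallest response was that of TFCP2L1, at rank 422. For all 8 members, in both siRNA arms, each dex library was higher than each vehicle library. The share of all tested genes that separated in this way was not counted, here or for the siRNA comparisons below. Such separation of libraries therefore has no background to be set against wherever it is described. In A549 dex raised 6 of the 8 members past the read filter with siNON (FKBP5, TFCP2L1, CDKN1C, ANGPTL4, PDK4 and BCL6), where 6.94% of genes rose, and the same 6 with siIRF2BP2, where 15.2% rose. CRISPLD2 was the 1 of 8 members called lower by dex with siNON in A549 (4.98% of genes fell).

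**Figure D1:**
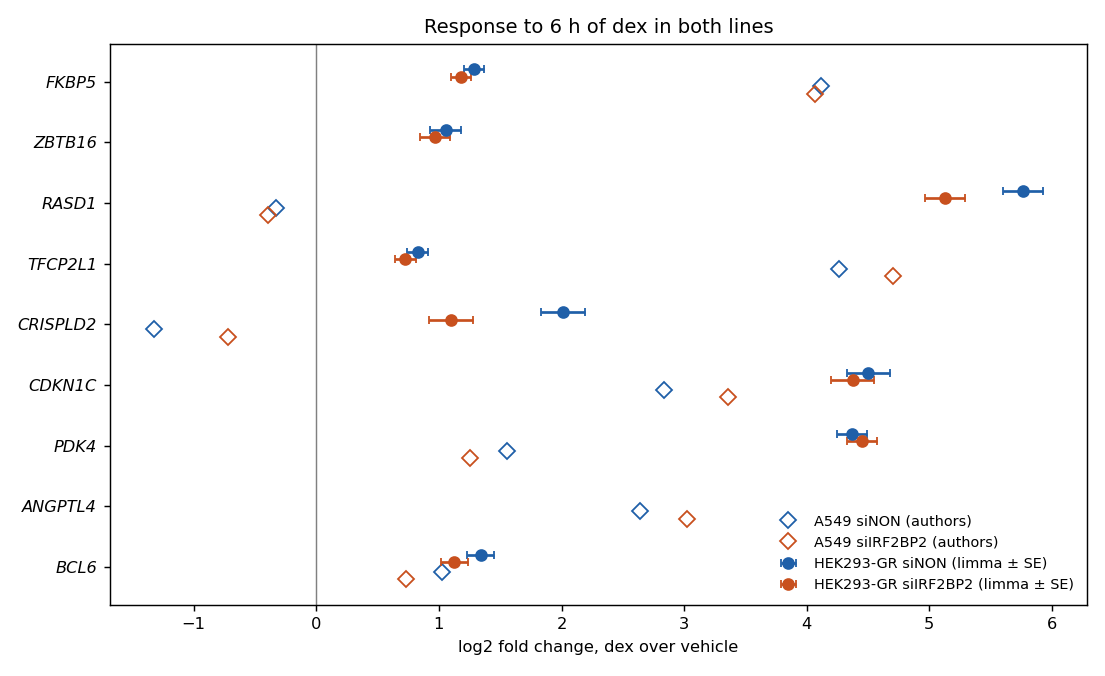
Response to 6 h of dex as log2 fold change over vehicle (x axis) for each gene (rows). Filled circles are limma estimates ± SE in HEK293-GR (n = 3 libraries per group), open diamonds the values of the authors' deposited table for A549, in blue for siNON and orange for siIRF2BP2; ZBTB16 in A549 and ANGPTL4 in HEK293-GR are left out for lack of reads. FKBP5 and TFCP2L1 lie above 4 in A549 and at or below 1.29 in HEK293-GR, while RASD1 lies above 5 in HEK293-GR and below 0 in A549.

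FKBP5 encodes an immunophilin that binds the receptor-chaperone complex and lowers its affinity for hormone, a short feedback loop. In HEK293-GR with siNON its level was 22.2, 23.3 and 22.3 FPKM under vehicle and 56.2, 54.6 and 54.6 FPKM under dex. With siIRF2BP2 it was 22.1, 21.1 and 24.5 FPKM under vehicle and 53.0, 55.8 and 45.0 FPKM under dex. Vehicle and dex libraries were far apart, and libraries of the 2 siRNAs overlapped under either treatment. The limma log2 fold change with dex was 1.29 ± 0.08 (± SE, adjusted p = 8.12e-09) with siNON and 1.18 ± 0.08 (adjusted p = 3.29e-08) with siIRF2BP2. FKBP5 was the highest member in both treatments and reached 1.29 reads per base, while the densest genes of each library lay between 2.83 and 3.11. That upper density hardly moved, although depth ran from 18.2 to 28.5 M tags. In the deepest library, siIRF2BP2 dex replicate 3, FKBP5 and PDK4 had their lowest dex levels (45.0 and 31.5 FPKM). If reads per position were limited, high HEK293-GR levels and their dex changes would be understated, also beside A549. This was not tested.

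In A549 FKBP5 with siNON stood at 21.4 CPM (vehicle), 354 CPM (dex), 16.6 CPM (TNF) and 335 CPM (both agents). With siIRF2BP2 the same columns held 28.2, 461, 17.8 and 351 CPM. The log2 fold changes of FKBP5 with dex were 4.11 (siNON) and 4.07 (siIRF2BP2) in the authors' deposited table. TNF together with dex left FKBP5 at -0.10 against dex alone with siNON on the log2 scale of the authors' deposited table (FDR 0.980), and it fell by 0.28 with siIRF2BP2 (FDR 2.01e-05).

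ZBTB16 (PLZF) is a zinc finger repressor that is barely expressed in many cells until a glucocorticoid is added. In HEK293-GR with siNON it was at 1.15, 1.04 and 1.01 FPKM under vehicle and at 2.16, 2.26 and 2.57 FPKM under dex. With siIRF2BP2 the values were 1.45, 1.25 and 1.32 FPKM and then 2.59, 2.77 and 2.78 FPKM. The siIRF2BP2 libraries lay above the siNON libraries of the same treatment without overlap, but the knockdown log2 fold change passed the limma threshold neither under vehicle (0.30 ± 0.12, adjusted p = 0.107) nor under dex (0.21 ± 0.12, adjusted p = 0.175). Dex raised ZBTB16 by a log2 fold change of 1.05 ± 0.12 for siNON (adjusted p = 9.43e-06 by limma) and 0.97 ± 0.12 with siIRF2BP2 (limma adjusted p = 3.17e-05). In A549 ZBTB16 was listed at 0 in all 4 columns without dex and at 0.764 and 0.955 CPM with siNON and 0.382 and 0.764 CPM with siIRF2BP2 under dex and under both agents. It averaged 16.4 reads per column there, so no fold change is given.

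BCL6, a zinc finger repressor best known from germinal centre B cells, rose moderately in both lines. In HEK293-GR its levels with siNON were 3.61, 3.10 and 2.76 FPKM under vehicle and 7.35, 8.46 and 8.53 FPKM under dex. With siIRF2BP2 they were 4.08, 4.01 and 4.79 FPKM under vehicle and 8.67, 10.3 and 9.47 FPKM under dex. Each siIRF2BP2 library was above each siNON library of the same treatment. Dex gave limma log2 fold changes of 1.34 ± 0.11 (adjusted p = 1.83e-07) with siNON and 1.12 ± 0.11 (adjusted p = 1.97e-06) with siIRF2BP2.

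In A549 BCL6 stood at 42.3, 82.2, 34.2 and 73.7 CPM with siNON (vehicle, dex, TNF, both) and at 52.7, 85.1, 39.1 and 83.1 CPM with siIRF2BP2. The authors' deposited table gave BCL6 a dex response of 1.03 (FDR 6.48e-15) with siNON and 0.73 (FDR 3.67e-20) with siIRF2BP2. Adding TNF to dex gave no called change in the authors' deposited table (-0.12, FDR 0.959, with siNON and 0.08, FDR 0.662, with siIRF2BP2). BCL6 shares 11038 bases with LOC100131635 on the opposite strand, which averaged 0.0338 CPM against 61.6 CPM for BCL6.

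TFCP2L1 is a grainyhead-family transcription factor of distal kidney tubules and of pluripotent cells. In HEK293-GR it was at 4.09, 3.77 and 3.83 FPKM under vehicle and at 6.95, 7.09 and 6.91 FPKM under dex with siNON. With siIRF2BP2 it was at 4.28, 3.94 and 4.58 FPKM under vehicle and at 6.73, 7.24 and 7.34 FPKM under dex. Dex libraries were tightly grouped above the vehicle libraries, and the 2 siRNAs overlapped. The limma log2 fold change with dex was 0.83 ± 0.09 (adjusted p = 2.41e-06) with siNON and 0.72 ± 0.09 (adjusted p = 1.41e-05) with siIRF2BP2.

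In A549 TFCP2L1 had the steepest dex response of the 8 members past the read filter. Its levels were 7.96, 154, 6.24 and 129 CPM with siNON (vehicle, dex, TNF, both) and 6.66, 169, 3.77 and 104 CPM with siIRF2BP2. The log2 fold changes with dex in the authors' deposited table were 4.27 (FDR 2.05e-170) and 4.70. TNF lowered TFCP2L1 with siIRF2BP2, with values of -0.72 alone (FDR 1.45e-04) and -0.60 on top of dex (FDR 5.97e-18) in the authors' deposited table, against -0.29 (FDR 0.232) and -0.21 (FDR 0.482) with siNON. The difference between the siRNA arms was not tested.

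RASD1 (Dexras1) encodes a Ras-like GTPase that was named for its induction by dex. In HEK293-GR with siNON its levels were 0.512, 0.367 and 0.418 FPKM under vehicle and 29.0, 27.4 and 29.7 FPKM under dex. With siIRF2BP2 they were 0.278, 0.382 and 0.571 FPKM under vehicle and 17.6, 17.4 and 16.9 FPKM under dex. The gene went from 12 to 21 reads per vehicle library to 552 to 1084 per dex library, and under dex no siIRF2BP2 library came near a siNON library. The limma log2 fold change with dex was 5.77 ± 0.16 (adjusted p = 4.13e-13) with siNON and 5.13 ± 0.16 (adjusted p = 1.71e-12) with siIRF2BP2.

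In A549 RASD1 did not rise with dex. With siNON it stood at 10.8 CPM (vehicle), 8.43 CPM (dex), 18.8 CPM (TNF) and 11.8 CPM (both agents), and with siIRF2BP2 at 2.91, 2.14, 6.10 and 3.43 CPM. The dex response in the authors' deposited table was -0.33 (FDR 0.338) with siNON and -0.39 (FDR 0.273) with siIRF2BP2. TNF raised RASD1, with log2 fold changes of 0.92 (FDR 1.31e-10) and 1.19 (FDR 5.98e-09) in the authors' deposited table, and dex on top of TNF lowered it, with values of -0.63 (FDR 0.00171) and -0.81 (FDR 1.61e-04). Knockdown lowered RASD1 in all 4 A549 treatments, between -1.71 under TNF and -2.06 under dex (authors' deposited table).

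CDKN1C (p57) is a cyclin-dependent kinase inhibitor that halts the cell cycle. In HEK293-GR with siNON it was at 1.23, 1.30 and 0.875 FPKM under vehicle and at 30.2, 25.9 and 26.8 FPKM under dex. With siIRF2BP2 it was at 0.818, 0.453 and 0.516 FPKM under vehicle and at 15.9, 14.2 and 12.05 FPKM under dex. Each siIRF2BP2 library was below each siNON library in both treatments. Dex raised CDKN1C by log2 fold changes of 4.50 ± 0.18 (adjusted p = 1.69e-11 by limma) under siNON and 4.37 ± 0.18 (limma adjusted p = 3.51e-11) with siIRF2BP2.

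In A549 CDKN1C was the member that TNF lowered most under dex. It stood at 1.67, 11.4, 0.762 and 4.86 CPM with siNON (vehicle, dex, TNF, both) and at 1.09, 11.1, 0.486 and 3.07 CPM with siIRF2BP2. The dex response was 2.84 (FDR 1.35e-48) and 3.35 (FDR 4.24e-45) in the authors' deposited table. Adding TNF to dex changed CDKN1C by -1.18 (FDR 1.69e-07) with siNON and -1.72 (FDR 2.59e-16) with siIRF2BP2 in that authors' deposited table, and the column with both agents still lay above vehicle in each arm.

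PDK4 encodes pyruvate dehydrogenase kinase 4, which shuts the entry of glucose carbon into the citric acid cycle. In HEK293-GR with siNON its levels were 1.54, 2.07 and 1.93 FPKM under vehicle and 40.7, 39.97 and 38.7 FPKM under dex. With siIRF2BP2 they were 1.51, 1.81 and 1.30 FPKM under vehicle and 36.5, 38.8 and 31.5 FPKM under dex. The libraries of the 2 siRNAs overlapped in both treatments. The limma log2 fold change with dex was 4.37 ± 0.12 (adjusted p = 3.32e-13) with siNON and 4.45 ± 0.12 (adjusted p = 8.05e-13) with siIRF2BP2.

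In A549 PDK4 was already the highest member without hormone, at 125 CPM per kb of exon under siNON vehicle, and the knockdown lowered it in every treatment. Its levels were 460, 1263, 511 and 975.4 CPM with siNON (vehicle, dex, TNF, both) and 254, 597, 196 and 427 CPM with siIRF2BP2. Dex raised it by 1.56 (FDR 9.47e-21) and 1.25 (FDR 9.25e-51) in the authors' deposited table. The knockdown values in the authors' deposited table ranged from -1.05 under vehicle (FDR 1.41e-19) to -1.49 under TNF (FDR 4.54e-41).

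ANGPTL4, a secreted inhibitor of lipoprotein lipase, was almost silent in HEK293-GR, with 0 to 7 reads in each of the 12 libraries. It was listed at 0.024, 0.028 and 0.024 FPKM under vehicle and 0.052, 0.075 and 0 FPKM under dex with siNON, and at 0.021, 0.044 and 0.025 FPKM and 0.179, 0 and 0.037 FPKM with siIRF2BP2. The groups overlapped and no response could be measured at this depth. In A549 it was abundant, at 22.4 CPM (vehicle), 120 CPM (dex), 6.04 CPM (TNF) and 71.8 CPM (both agents) with siNON. With siIRF2BP2 the same columns held 28.8, 226, 23.1 and 172 CPM.

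The dex response of ANGPTL4 was 2.64 (FDR 5.03e-12) with siNON and 3.02 with siIRF2BP2 in the authors' deposited table. TNF alone lowered it with siNON (-1.53, FDR 4.20e-04), and with siIRF2BP2 the value was -0.17 (FDR 0.710), both from the authors' deposited table. The knockdown raised ANGPTL4 under dex by 0.87 (FDR 7.50e-10), under TNF by 1.86 (FDR 5.23e-15) and under both agents by 1.22 (FDR 3.47e-42), and its value under vehicle was 0.50 (FDR 0.321), in the authors' deposited table.

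CRISPLD2 encodes a secreted LCCL-domain protein that was described as a glucocorticoid-responsive gene of airway smooth muscle. In HEK293-GR with siNON it was at 0.322, 0.303 and 0.239 FPKM under vehicle and at 1.56, 1.19 and 1.67 FPKM under dex. With siIRF2BP2 it was at 0.291, 0.273 and 0.393 FPKM under vehicle and at 0.785, 0.935 and 0.667 FPKM under dex. The 2 siRNAs overlapped under vehicle, and under dex each siIRF2BP2 library lay below each siNON library. Dex raised it by log2 fold changes of 2.01 ± 0.18 (adjusted p = 4.55e-07 by limma) for siNON and 1.10 ± 0.18 (limma adjusted p = 4.51e-04) with siIRF2BP2, and a pseudocount of 1 brought these to 0.94 and 0.44.

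In A549 CRISPLD2 was lower with dex under siNON, on few reads (67.2 per column on average). It stood at 1.79, 0.627, 1.52 and 1.07 CPM with siNON (vehicle, dex, TNF, both) and at 1.61, 0.895, 2.51 and 1.97 CPM with siIRF2BP2. The dex response was -1.32 (FDR 8.67e-04) with siNON and -0.72 (FDR 0.126) with siIRF2BP2 in the authors' deposited table.

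**Figure D2:**
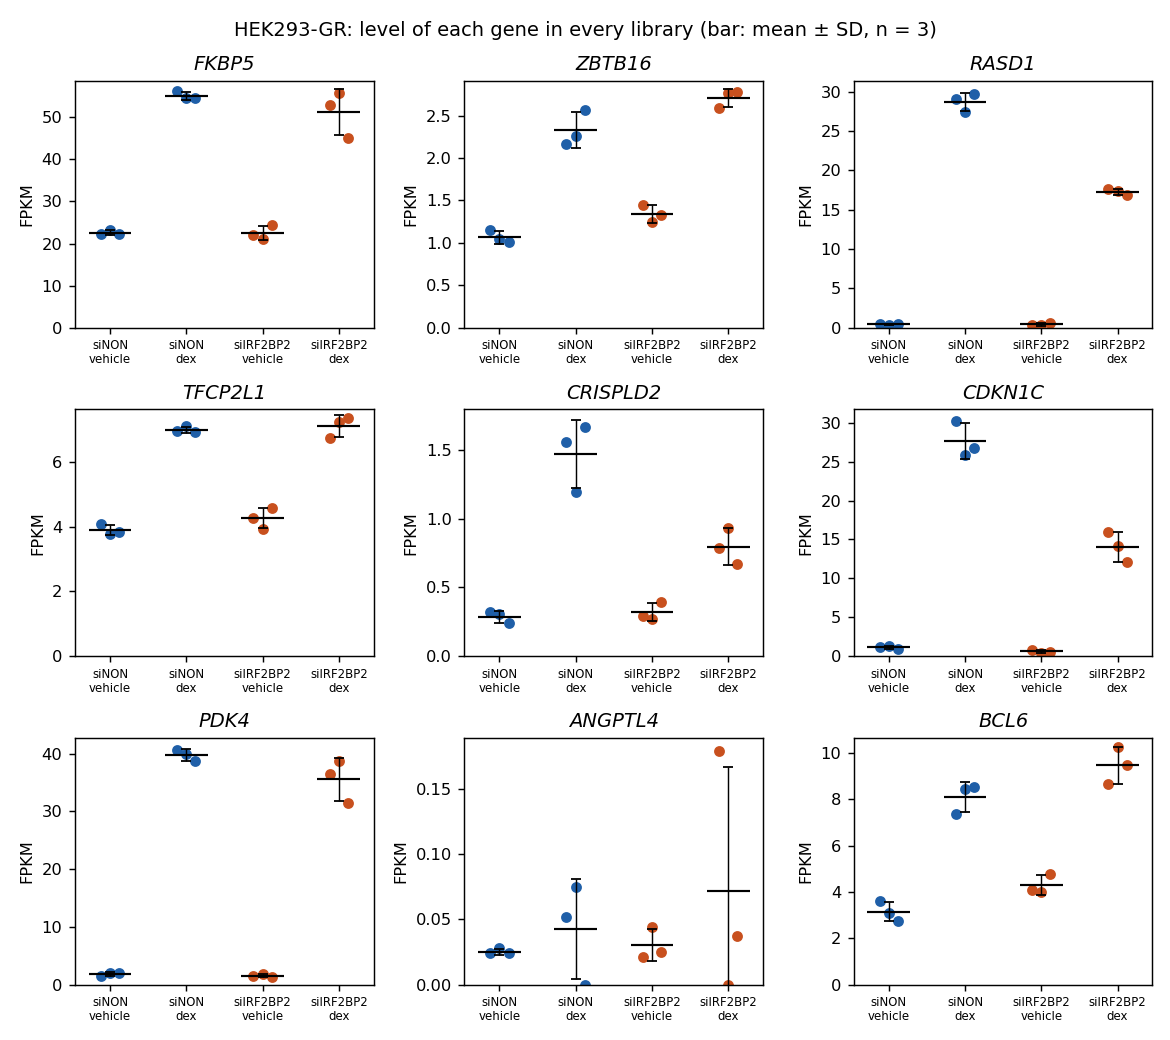
FPKM (y axis, linear from 0, own scale per panel) of each gene in every HEK293-GR library, by siRNA and treatment (x axis); dots are libraries, lines the mean ± SD of 3. For all genes but ANGPTL4 the dex libraries lie above the vehicle libraries, and for RASD1, CDKN1C and CRISPLD2 the siIRF2BP2 dex libraries lie below the siNON dex libraries.

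Ordered by FPKM in HEK293-GR under siNON vehicle, the members ran from FKBP5 (22.6 ± 0.607, SD, n = 3) over TFCP2L1 (3.90 ± 0.166), BCL6 (3.15 ± 0.428), PDK4 (1.84 ± 0.274), CDKN1C (1.13 ± 0.227), ZBTB16 (1.07 ± 0.0765), RASD1 (0.432 ± 0.0736) and CRISPLD2 (0.288 ± 0.0435) to ANGPTL4. CDKN1C and ZBTB16 overlapped, and no other neighbours did. Under siNON dex the order of mean FPKM was FKBP5 (55.1 ± 0.954), PDK4 (39.8 ± 0.979), RASD1 (28.7 ± 1.18), CDKN1C (27.6 ± 2.30), BCL6 (8.11 ± 0.661), TFCP2L1 (6.99 ± 0.0960), ZBTB16 (2.33 ± 0.210), CRISPLD2 (1.47 ± 0.248) and ANGPTL4. RASD1 and CDKN1C overlapped there, and the other neighbours did not. PDK4, RASD1 and CDKN1C thus moved from the lower ranks to just below FKBP5.

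In A549 the order by CPM per kb of exon under siNON vehicle was PDK4 (125), ANGPTL4 (11.8), BCL6 (11.6), RASD1 (6.21), FKBP5 (5.68), CDKN1C (0.868), TFCP2L1 (0.859), CRISPLD2 (0.392) and ZBTB16, listed at 0. Under siNON dex PDK4 (343) and FKBP5 (94.1) led, followed by ANGPTL4 (63.4), BCL6 (22.5), TFCP2L1 (16.6), CDKN1C (5.94), RASD1 (4.84), ZBTB16 (0.319) and CRISPLD2 (0.137). With pooled columns it cannot be said which neighbours in this order differ. The exon lengths are those of the HEK293-GR transcripts, which for FKBP5, RASD1, ANGPTL4 and BCL6 are not the transcripts read in A549. Whether intron reads were counted was not tested. If they were, genes with a long span, such as FKBP5 (154998 bases against 3769 of exon), would stand too high.

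**Figure D3:**
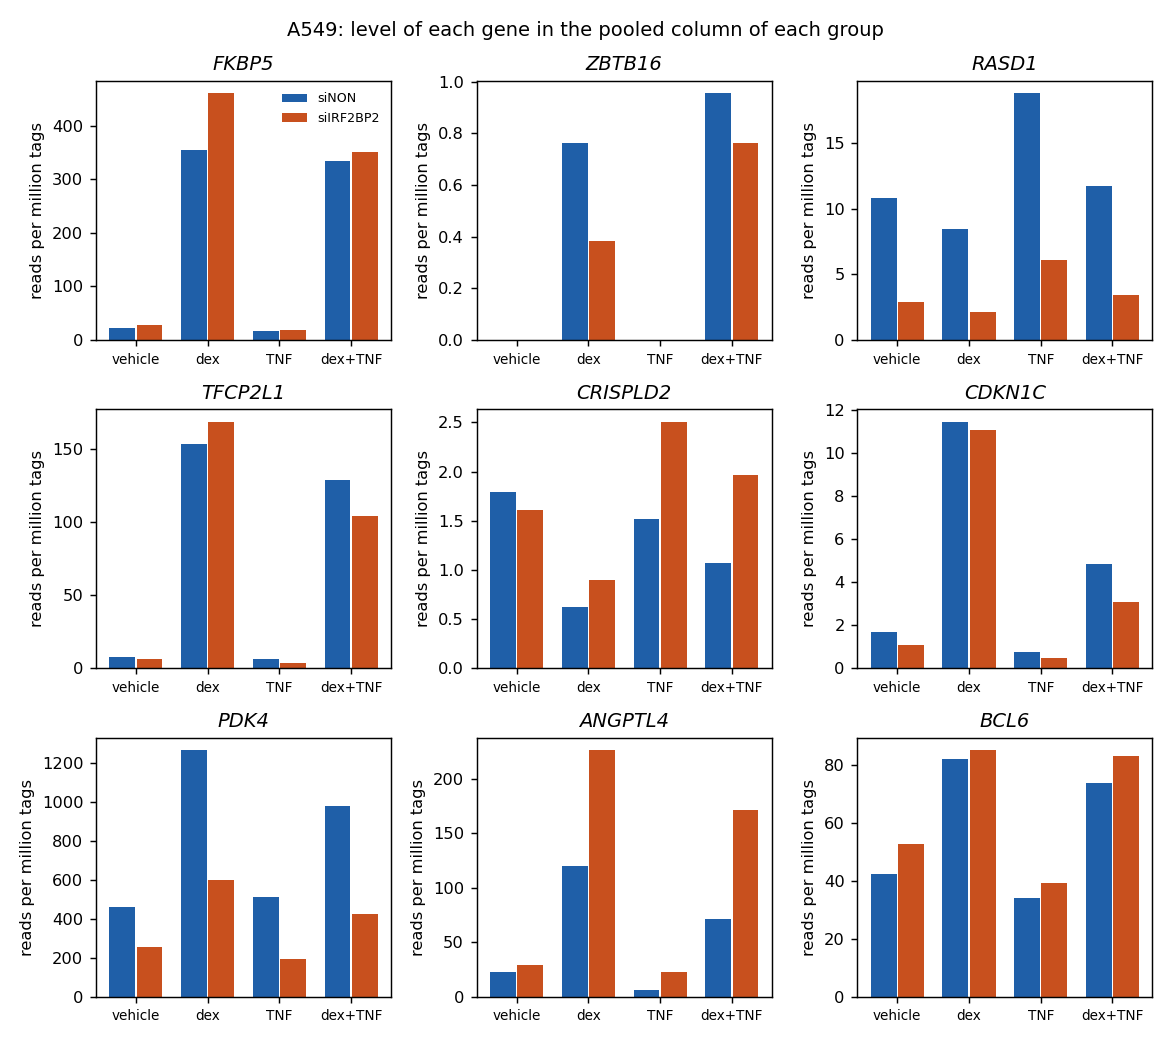
CPM (y axis, linear from 0, own scale per panel) of each gene in the 8 pooled A549 columns, by treatment (x axis) and siRNA (blue siNON, orange siIRF2BP2); each bar is 1 pooled column, with no error. The dex and dex+TNF bars tower over the others for FKBP5 and TFCP2L1, RASD1 and PDK4 are lower with siIRF2BP2 in every treatment, and ANGPTL4 is higher.

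In HEK293-GR under vehicle, with IRF2BP2 knocked down, CDKN1C was lower (log2 fold change -0.85 ± 0.18, limma adjusted p = 0.00528) and BCL6 was higher (0.44 ± 0.11, limma adjusted p = 0.0163), 2 of 8 tested members, where 7.48% of the tested genes fell, 8% rose and 15.5% changed in either direction. Both calls were lost when the fit held only these 2 groups (limma adjusted p = 0.0652 and 0.111) and in the authors' deposited table (FDR 0.0947 and 0.107). The BCL6 call was also lost without siIRF2BP2 vehicle replicate 3 (limma adjusted p = 0.0661) or siNON vehicle replicate 2 (limma adjusted p = 0.0502). The number of genes called in the whole table was 4815 without siNON vehicle replicate 3 and 1161 without siIRF2BP2 vehicle replicate 2, against 2414 with all libraries.

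Under dex the knockdown lowered CDKN1C, CRISPLD2 and RASD1, 3 of 8 tested members, where 17.3% of the tested genes fell and 39.7% changed in either direction, so the share of members called in either direction was close to that of all genes. The log2 fold changes were -0.97 ± 0.18 for CDKN1C (limma adjusted p = 8.67e-04), -0.81 ± 0.18 for CRISPLD2 (limma adjusted p = 0.00311) and -0.73 ± 0.16 for RASD1 (limma adjusted p = 0.00308). These 3 calls held in all 21 alternatives that were run. FKBP5 (-0.11 ± 0.08, limma adjusted p = 0.296), PDK4 (-0.17 ± 0.12, limma adjusted p = 0.285), TFCP2L1 (0.02 ± 0.09, limma adjusted p = 0.846) and BCL6 (0.22 ± 0.11, limma adjusted p = 0.126) did not pass. BCL6 passed with only the 2 groups in the fit (limma adjusted p = 0.0167) and in the authors' deposited table (FDR 0.0447), where PDK4 passed as well (FDR 0.0147).

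Whether the dex response itself differed between siRNAs was tested as the difference of the 2 responses, and limma called 0 of the 8 members and 2 of all 15594 genes (0.0128%). At an unadjusted p under 0.05, 2 members and 805 genes (5.16%) stood out. The members were CRISPLD2, with a difference of -0.92 (95% interval -1.46 to -0.37, limma adjusted p = 0.513), and RASD1, with -0.64 (-1.12 to -0.15, limma adjusted p = 0.794). For RASD1 the difference was called with a pseudocount of 1 (-0.67, limma adjusted p = 0.0456). All RASD1 vehicle libraries (0.278 to 0.571 FPKM) lay below that pseudocount, which shrinks changes under vehicle. That value therefore rests mostly on the dex libraries, where the knockdown value was -0.73 ± 0.16 at the main setting. The intervals of the other members were -0.36 to 0.14 for FKBP5, -0.45 to 0.28 for ZBTB16, -0.55 to 0.12 for BCL6, -0.36 to 0.15 for TFCP2L1, -0.65 to 0.40 for CDKN1C and -0.28 to 0.44 for PDK4. All these are log2 differences of siIRF2BP2 minus siNON.

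In A549 knockdown lowered 3 of 8 members under vehicle (RASD1, PDK4 and CDKN1C, where 20.8% of genes fell), 2 under dex (RASD1 and PDK4, 18.9%), 3 under TNF (RASD1, PDK4 and TFCP2L1, 22%) and 4 under both agents (RASD1, PDK4, CDKN1C and TFCP2L1, 20.7%). It raised none under vehicle (18.6% of genes rose), ANGPTL4 under dex (17.5%), and ANGPTL4 and CRISPLD2 under TNF (22.6%) and under both agents (20.7%). These shares of members come from the calls of the authors' deposited table. RASD1 under vehicle was lower in A549 (-1.98 in the authors' deposited table, FDR 2.66e-26), while in HEK293-GR its vehicle value was -0.09 ± 0.16 (limma adjusted p = 0.726). For FKBP5 and BCL6 no A549 knockdown value passed (authors' deposited table, -0.07 to 0.24). The pooled columns put FKBP5 further up, at log2 ratios of 0.38 under vehicle and 0.38 under dex.

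**Figure D4:**
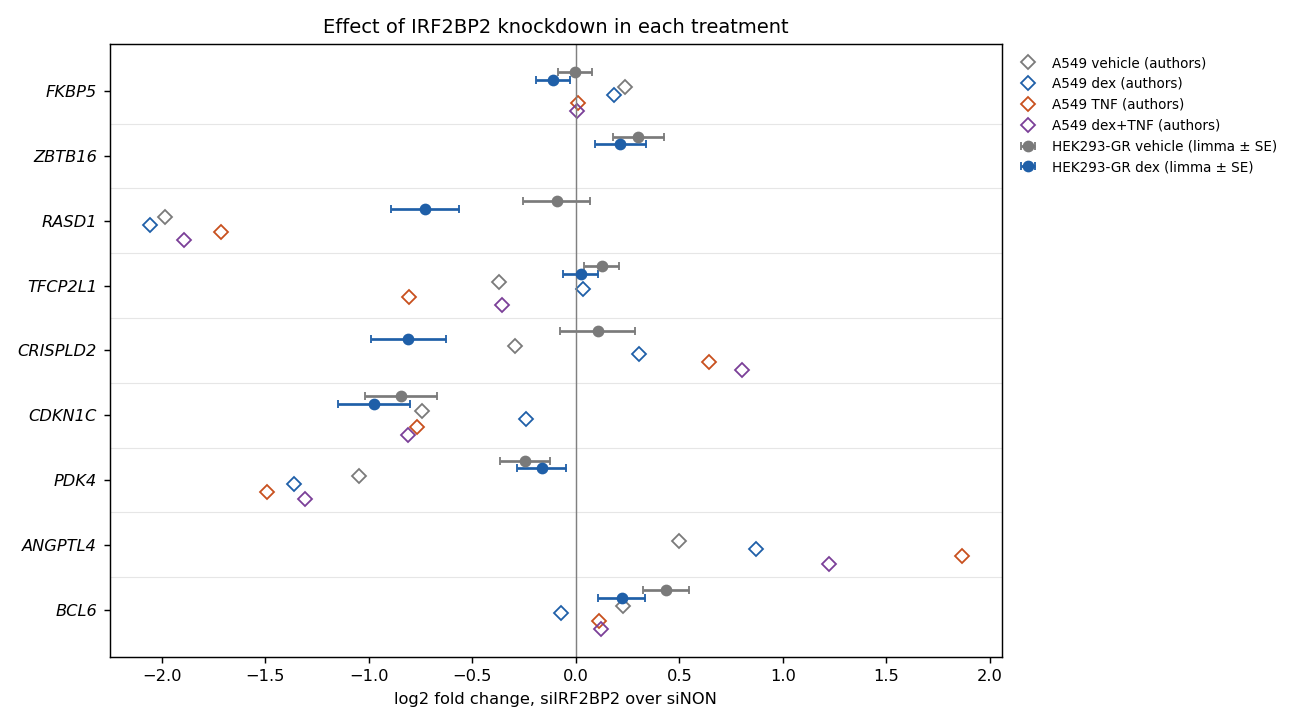
Log2 fold change of siIRF2BP2 over siNON (x axis) for each gene (rows) in each treatment. Filled circles are limma estimates ± SE in HEK293-GR, open diamonds values of the authors' deposited table for A549, colours mark the treatment; ZBTB16 in A549 and ANGPTL4 in HEK293-GR are left out for lack of reads. RASD1 and PDK4 lie at -1.05 or below in all 4 A549 treatments and ANGPTL4 at 0.50 or above, while FKBP5 stays between -0.11 and 0.24.

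TNF alone raised 1 of 8 members in A549 with siNON (RASD1, 11.5% of genes rose) and lowered 2 (CDKN1C and ANGPTL4, 10.7% fell). With siIRF2BP2 it raised 2 (RASD1 and CRISPLD2, 21.2%) and lowered 4 (FKBP5, TFCP2L1, PDK4 and BCL6, 21.2%). Added to dex, TNF raised RASD1 (7.14% rose) and lowered CDKN1C and ANGPTL4 (4.71% fell) with siNON. With siIRF2BP2 it raised RASD1 and CRISPLD2 (19.3%) and lowered FKBP5, TFCP2L1, CDKN1C, ANGPTL4 and PDK4 (15.3%).

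Dex added to TNF raised the 6 members that dex alone raised, with siNON (10.5% of genes rose) and with siIRF2BP2 (15%), and lowered RASD1 in both arms (8.48% and 12.9% fell). The responses to dex on top of TNF share no column with the responses to dex over vehicle, and for FKBP5 they were 4.32 against 4.11 with siNON in the authors' deposited table. For ANGPTL4 the values were 3.55 against 2.64, for PDK4 0.96 against 1.56 and for CDKN1C 2.70 against 2.84, again with siNON in the authors' deposited table. No test of these differences was possible on pooled columns.

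Other genes known to be induced by glucocorticoids, a list of 22, were raised by dex in HEK293-GR in 18 of 22 cases with either siRNA, with a median log2 fold change of 1.04 with siNON against 0.02 over all tested genes. SGK1 (3.69 ± 0.09, limma adjusted p = 1.46e-13), a kinase that controls sodium channels, and the clock gene PER1 (2.59 ± 0.11, limma adjusted p = 6.56e-11) were among them. In A549 all 19 that passed the read filter rose with either siRNA, among them TSC22D3 (GILZ) at 2.70 and the transcription factor KLF9 at 3.57 with siNON in the authors' deposited table. The knockdown lowered 12 of the 19 under vehicle, dex and TNF each and 10 under both agents in the authors' deposited table, where 20.8%, 18.9%, 22% and 20.7% of all genes fell. In HEK293-GR it raised 5 and lowered 1 of the 22 under vehicle, where 8% of the tested genes rose and 7.48% fell, and raised 3 and lowered 5 under dex, where 22.4% rose and 17.3% fell.

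Of 10 paralogs of the members tested in HEK293-GR, dex with siNON raised 3 (CDKN1A, CRISPLD1 and PDK2) and lowered 1 (PDK1), where 10.9% of the tested genes rose and 9.82% fell. Their median log2 fold change was 0.00, against 0.02 over all tested genes. CDKN1A, the p21 relative of CDKN1C, rose by 1.33 ± 0.09 (limma adjusted p = 1.81e-08), and PDK1 fell (-0.47 ± 0.11, limma adjusted p = 0.00515). Of the 12 genes of the receptor and its chaperones, with siNON DNAJB1 rose (0.39 ± 0.07, limma adjusted p = 0.00112) and the mineralocorticoid receptor NR3C2 fell (-0.97 ± 0.11, limma adjusted p = 6.21e-06). With siIRF2BP2 dex raised 0 of the 12 and lowered 1, and DNAJB1 was at 0.01 ± 0.07 (limma adjusted p = 0.978). The difference between these 2 DNAJB1 responses was not called (-0.39 ± 0.10, limma adjusted p = 0.446). Among 12 tested genes of the PPAR pathway, which also controls PDK4 and ANGPTL4, dex with siNON raised 3, PLIN2 (0.90 ± 0.08, limma adjusted p = 1.90e-07), PPARA and CPT2. In A549 dex with siNON raised 1 of 13 of them (PLIN2, 0.39) and lowered 1 (CPT2, -0.42) in the authors' deposited table.

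The gene most like FKBP5 across both lines was TFCP2L1, and the reverse held too. Likeness was the root mean square difference of log2(FPKM + 0.1) changes from siNON vehicle over the other 10 groups, among 15593 genes, and it was 0.281 for this pair, whose own changes had root mean squares of 2.22 and 2.12. FAM105A came second for both (0.423 and 0.372). Nearest to CDKN1C was PDK4 (0.953), to PDK4 the transporter gene SLC6A19 (0.684) and TIPARP (0.704), to BCL6 ABCC8 (0.204) and ZFAND5 (0.235), and to RASD1 CST1 (0.953) and SLC6A3 (1.11). CDKN1C was followed by CDH16 (1.01). FPKM over a long genomic span is small beside the pseudocount in A549, which limits this measure. Without dex it was 0.107 to 0.182 for FKBP5 and 0.055 to 0.116 for TFCP2L1, so their dex changes on this scale with siNON were 3.33 and 3.44, below those of the authors' deposited table. For ZBTB16 (CDYL2 and IPCEF1) and CRISPLD2 (SMOC2 and TUNAR) the A549 groups carry little weight for the same reason.

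IRF2BP2 peaks were compared with the members' starts on build hg19, as the peak files give them. Of the 1400 peaks under dex, the nearest to PDK4 had its centre 0.637 kb upstream of the start (chr7:95226397-95226728), and the nearest to TFCP2L1 2.35 kb downstream, inside the gene (chr2:122040260-122040591). Among the 1108 peaks under vehicle the nearest lay 1000 kb from PDK4 and 209.9 kb from TFCP2L1. FKBP5 had a dex peak 25.7 kb downstream of its start, inside the gene (chr6:35630893-35631224), and CRISPLD2 one 77.2 kb upstream (chr16:84776221-84776552). ANGPTL4 had a peak 3.32 kb inside the gene under vehicle (chr19:8432164-8432506) and its nearest dex peak was 1249 kb away.

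BCL6 had a peak in both lists, about 9 kb upstream of the start used in the HEK293-GR table and 0.2 kb from another annotated start (chr3:187463150-187463481 under dex). ZBTB16 had peaks in both lists about 100 kb into the gene, and RASD1 417.7 kb upstream in both. The nearest peaks to CDKN1C were 4805 kb (vehicle) and 4107 kb (dex) away. Within 10 kb of the start, 2 of 9 members had a vehicle peak and 3 of 9 a dex peak, against 1.10% and 1.23% of all 25689 genes. Within 100 kb the counts were 2 and 5 of 9, against 7.99% and 10.1%. Peaks had a uniform width (343 and 332 bases) and score, and how replicates were combined is not given in the sources used here, so presence in a single list shows no tested change.

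**Figure D5:**
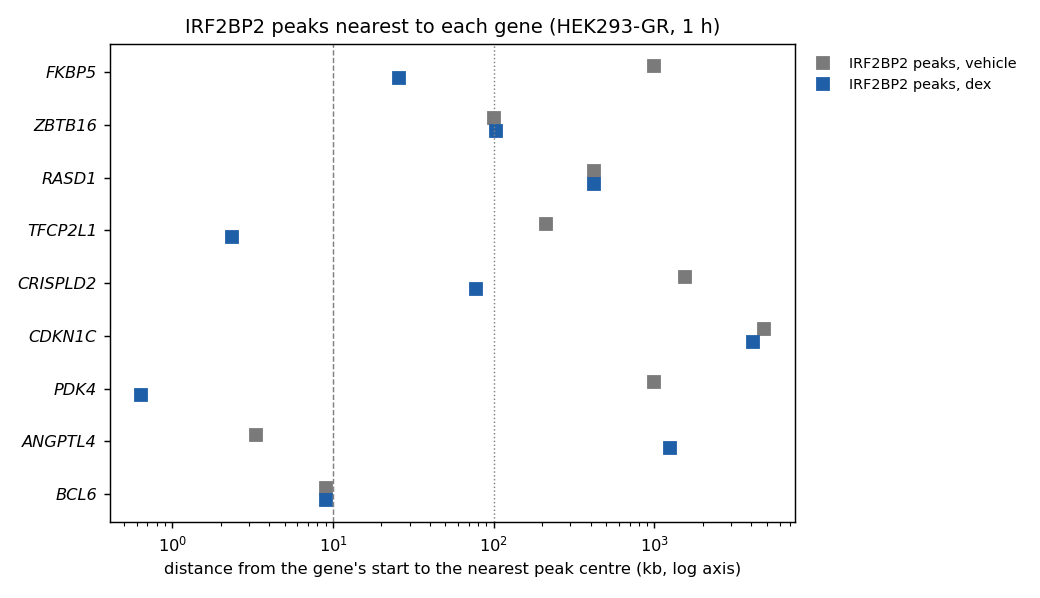
Distance in kb (x axis, log scale) from the start of each gene (rows) to the centre of the nearest IRF2BP2 peak in HEK293-GR after 1 h of vehicle (grey) or dex (blue); the dashed line is at 10 kb and the dotted line at 100 kb. PDK4, TFCP2L1 and BCL6 have a dex peak within 10 kb, ANGPTL4 and BCL6 a vehicle peak, and the nearest peaks to CDKN1C are 4107 and 4805 kb away.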

How the data were processed

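The members, gene lists and tests were chosen with earlier results of these data known. The submitters' processing notes name Trimmomatic 0.33, TopHat2, Bowtie2, edgeR, HOMER and FastQC for RNA. For ChIP they name HOMER 4.10.3, Bowtie 0.12.9, FastQC and bedtools, and the build is hg19. Per the file headers the deposited expression values are FPKM, so the authors had divided reads by length and by tags. FPKM × length × tags gave whole reads (within 0.01 reads beyond rounding) for 100% of the values checked. The log2 fold changes, p-values and FDR of the deposited comparisons are the authors', by a test that is not stated. Each peak in the deposited lists carries the same score of 1. HEK293-GR libraries were fitted with limma 3.58.1 (trend) in R 4.3.3, 12 libraries and 4 groups in 1 model, with 8 residual degrees of freedom before moderation, no replicate block and Benjamini-Hochberg adjustment. The model was also run on simulated counts with 1 dispersion for all genes and no library differences beyond depth. That run is simpler than these libraries and does not measure the accuracy of the calls here. Of the 16 HEK293-GR RNA samples 4 have no column in the table and were not analysed here. A tie of replicate numbers across groups was checked on the deviations from the group means: same-numbered libraries correlated between -0.38 and 0.26, so the numbers were not used for pairing. Differently numbered libraries correlated between -0.48 and 0.57, highest for siIRF2BP2 vehicle replicate 2 with siNON vehicle replicate 3. The fit treats all libraries as independent, and a source of variation shared across the vehicle groups was not tested. Genes named are all members, up to 6 per list with the smallest p, and the 2 genes most like each member. Chosen with values in view were the A549 filter of 30 reads, the motifs AGAACA and TATAAA, distances to any annotated start, and the authors' HEK293-GR comparison as an alternative.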

Additional observations from a re-analysis of the deposited data

Results flagged for a closer look

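The dex values of RASD1 and CRISPLD2 had opposite signs in the 2 lines, and of the 4 values in A549 only that of CRISPLD2 with siNON was called. In HEK293-GR both rose in every dex library over every vehicle library with either siRNA. In A549 the authors' deposited table gave RASD1 -0.33 with siNON and -0.39 with siIRF2BP2, neither past an FDR of 0.05. CRISPLD2 was at -1.32 with siNON, past that FDR, and at -0.72 with siIRF2BP2, which was not. The difference between the lines was not tested, since the A549 columns are pooled and the tables were normalized separately. A549 RASD1 rests on 385 reads per column on average and CRISPLD2 on 67.2. The dex columns behind these values held fewer for some: 77.0 reads for RASD1 with siIRF2BP2, and for CRISPLD2 35.6 with siNON and 32.2 with siIRF2BP2.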

How the results depend on the processing

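All 8 dex responses of the members in HEK293-GR kept direction and call, with either siRNA, in each of the 21 alternatives (pseudocounts 1 and 0.01, no filter or 50 reads, median-of-ratios scaling, voom on recovered reads, a replicate block, only the 2 groups, each library left out, the authors' deposited comparison). The genes called by dex with siNON ranged from 1976 (without siNON dex replicate 3) to 3909 when 1 library was left out. For the knockdown under vehicle, 567 genes and 0 members were called with only the 2 groups, 843 genes and 0 members in the authors' deposited comparison, and 1161 to 4815 genes and 1 to 2 members without 1 library, against 2414 and 2. Under dex, 5 members and 7257 of the 25690 listed genes were called in the authors' deposited comparison, against 3 members and 6188 genes. For the difference of responses, a pseudocount of 1 called 22 genes and 1 member, the replicate block 0 genes, and leaving out 1 library 0 to 7 genes, against 2. The replicate block changed no other count of genes by over 1.5 times and no call of a member (8, 8, 2, 3 and 0 called). Uncalled values near 0 changed sign when 1 library was left out. They ranged under vehicle from -0.0626 to 0.0423 for FKBP5, -0.31 to 0.10 for RASD1 and -0.0166 to 0.18 for CRISPLD2, under dex from -0.000863 to 0.0608 for TFCP2L1, and in the difference from -0.28 to 0.0888 for CDKN1C and -0.0292 to 0.20 for PDK4. In A549 the lowest BCL6 transcript was at -0.00302 for the knockdown under both agents, and ratios of pooled FPKM gave BCL6 0.05 for the knockdown under dex and -0.03 for TNF added to dex with siIRF2BP2, against uncalled -0.07 and 0.08 in the authors' deposited table. Pooled ratios were taken with a pseudocount of 0.01 FPKM, which exceeds the 0.007 FPKM of CRISPLD2 in the siNON dex column. Apart from ZBTB16, such ratios moved the following called A549 values by over 1.5 times. CRISPLD2 went to -0.82 for dex with siNON and, with siIRF2BP2, to 0.44 for TNF and 0.68 for TNF added to dex. PDK4 went to -0.38 for TNF with siIRF2BP2, and IRF2BP2 to -0.18 for the knockdown under vehicle. Without a pseudocount the CPM ratio of CRISPLD2 for dex over vehicle with siNON was 0.35. Uncalled FKBP5 went from 0.24 to 0.38 for the knockdown under vehicle and from 0.19 to 0.38 under dex. Members with a dex peak numbered 5 within 100 kb of the start (10.1% of all genes) and 5 within 10 kb of the gene body. The share of all genes with a peak near the gene body was not counted, so the latter number has no background. Long genes have more room for a peak by that measure. The cause of these shifts was not tested. Depth limits ANGPTL4 in HEK293-GR and ZBTB16 and CRISPLD2 in A549, where pooled columns give no replicate error.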
